A study of Homo sapiens with 8 samples.

Results

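The genes described here separate 2 human thyroid cancer cell lines by how they answered an siRNA against NR1D1. They were chosen by measurement: for each protein-coding gene, the log2 ratio of the siNR1D1 library to the siControl library was taken in 8505C and in CAL-62. A gene was a member if it moved 2-fold or more in opposite directions in the 2 lines, or 2-fold or more in 1 line and less than 2-fold, or not at all, in the other. Of 58884 gene identifiers, 10839 were protein-coding genes with a mean level of 5 or more over the 4 libraries. Of these 10839, 1567 were members. 14 moved in opposite directions, 896 moved in 8505C only and 657 moved in CAL-62 only. Another 437 moved 2-fold the same way in both lines and were not members. Because the ratios themselves chose the members, they are given as a description, with no test.

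8505C and CAL-62 are cell lines established from anaplastic thyroid carcinomas, which have lost most features of the thyroid follicular cell. Each line gave 1 library after a control siRNA, of the genotype labelled WT, and 1 library labelled NR1D1 knockdown, so no group had a replicate. TPC-1 and FTC-133, thyroid cancer lines transfected with an NR1D1 vector or an empty vector, gave 4 further libraries that are used here only for a few values. Neither the siRNA sequences and their number nor the harvest time is stated in the sources used here. The labels do not say whether the 2 lines were handled together, so a difference between the lines cannot be told apart from a difference between 2 single experiments.

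The protein made from NR1D1 is REV-ERB alpha, a nuclear receptor that recruits the NCOR corepressor and histone deacetylases to its target genes. It is best known in the circadian clock, where it represses BMAL1 (also called ARNTL). Lower REV-ERB alpha is therefore expected to relieve repression of BMAL1. Outside the clock it is known for effects on lipid metabolism and inflammatory genes.

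Levels are TPM (transcripts per 1000000) with the genes of the mitochondrial genome left out and each library rescaled to a sum of 1000000. Ratios were taken after adding 1 to each level, which understates changes of low genes. Below, a response is the log2 ratio of siNR1D1 to siControl in 1 line, and a difference is the 8505C response minus the CAL-62 response. Intervals are 95% intervals from the read numbers, which cover counting error only and say nothing of the spread between cultures.

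Libraries held between 12.9 and 17.9 (in units of 1e+06) reads on genes, and between 9.14 and 16.5 without the mitochondrial genes. Mitochondrial genes took 29.3% and 28.6% of the deposited TPM in 8505C control and siNR1D1, and 57.2% and 67.8% in CAL-62. The CAL-62 siNR1D1 library was thus both the shallowest and the richest in mitochondrial RNA. The thyroid genes TG, TSHR and SLC5A5 were below 0.5 in all 4 libraries. HHEX, also counted here as a thyroid marker, was expressed in both lines. Its control levels were 44.8 (8505C) and 159 (CAL-62), and its siNR1D1 levels were 29.4 (8505C) and 135 (CAL-62). PAX8 was present in CAL-62 alone, where it went from 126 to 281, and NKX2-1 in 8505C alone, where it went from 89.6 to 141, and the keratin genes KRT7, KRT8 and KRT18 were at least 292.8 in all 4. The other epithelial markers set the lines apart: EPCAM went from 453 to 1007 in CAL-62 and was at most 2.60 in 8505C, and KRT19 and CDH1 were at least 279 and 13.3 in CAL-62 and at most 0.280 and 0.357 in 8505C. The immune genes PTPRC and CD3E were below 0.5, and VWF, a marker of endothelium, was at most 0.524.

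NR1D1 itself went from 25.8 to 15.7 in 8505C and, in CAL-62, from 51.3 to 31.5. The remaining level was 0.611 of control in 8505C and 0.614 in CAL-62. The difference of 0.01 (-0.37 to 0.38) was within counting error, so the labelled target was lowered by a like amount on this scale in both lines. BMAL1 went from 17.8 to 23.6 in 8505C and, in CAL-62, from 28.4 to 62.5. It was higher after siRNA in both lines, and its response was larger in CAL-62 (difference -0.73, -0.96 to -0.49). NR1D2, the paralog of NR1D1, went from 50.1 to 62.8 in 8505C and, in CAL-62, from 71.5 to 80.5. THRA, which overlaps NR1D1 on the other strand, went from 32.01 to 37.9 in 8505C and, in CAL-62, from 15.4 to 17.3. Whether counting used the strand was not given.

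Across the 10839 genes, the median response was 0.02 in 8505C and 0.01 in CAL-62, with a median difference of 0.01. Without the removal of mitochondrial genes the median difference would be 0.40, so every value here is relative to the other nuclear genes. In 8505C, 1001 genes (9.24%) were 2-fold higher and 346 (3.19%) were 2-fold lower. In CAL-62, 766 (7.07%) were 2-fold higher and 342 (3.16%) lower. Over genes, the responses of the 2 lines correlated with a Pearson r of 0.549, a description over genes that share their libraries. Genes 2-fold higher in 8505C and 2-fold lower in CAL-62 numbered 8 (0.0738%), and genes with the reverse pattern numbered 6 (0.0554%). Genes 2-fold higher in 8505C only numbered 661 (6.1%), and 235 (2.17%) were 2-fold lower in 8505C only. In CAL-62 only, 428 (3.95%) were 2-fold higher and 229 (2.11%) were 2-fold lower.

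Moving in 1 line only depends on the threshold used. Of the 1553 genes counted in 1 line only, 1233 had a response of the same sign in the other line, and over all 10839 genes 7417 did. The responses of the 2 lines differed by 2-fold or more in 649 of the 1553. Over all genes, that large a difference was seen in 567 with the higher response in 8505C (5.23%) and 440 with the higher response in CAL-62 (4.06%). In 514 of the 1553 the other line stayed within a log2 ratio of 0.3 of no change. Over all 10839 genes, at least 1 line did so in 6743. Some of the 1553 were barely expressed in the other line. Of the 896 genes of 8505C, 77 were below 1 in both CAL-62 libraries. Of the 657 genes of CAL-62, 46 were below 1 in both 8505C libraries. Over all 10839 genes, 191 were below 1 in both CAL-62 libraries and 183 in both 8505C libraries.

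**Figure D1:**
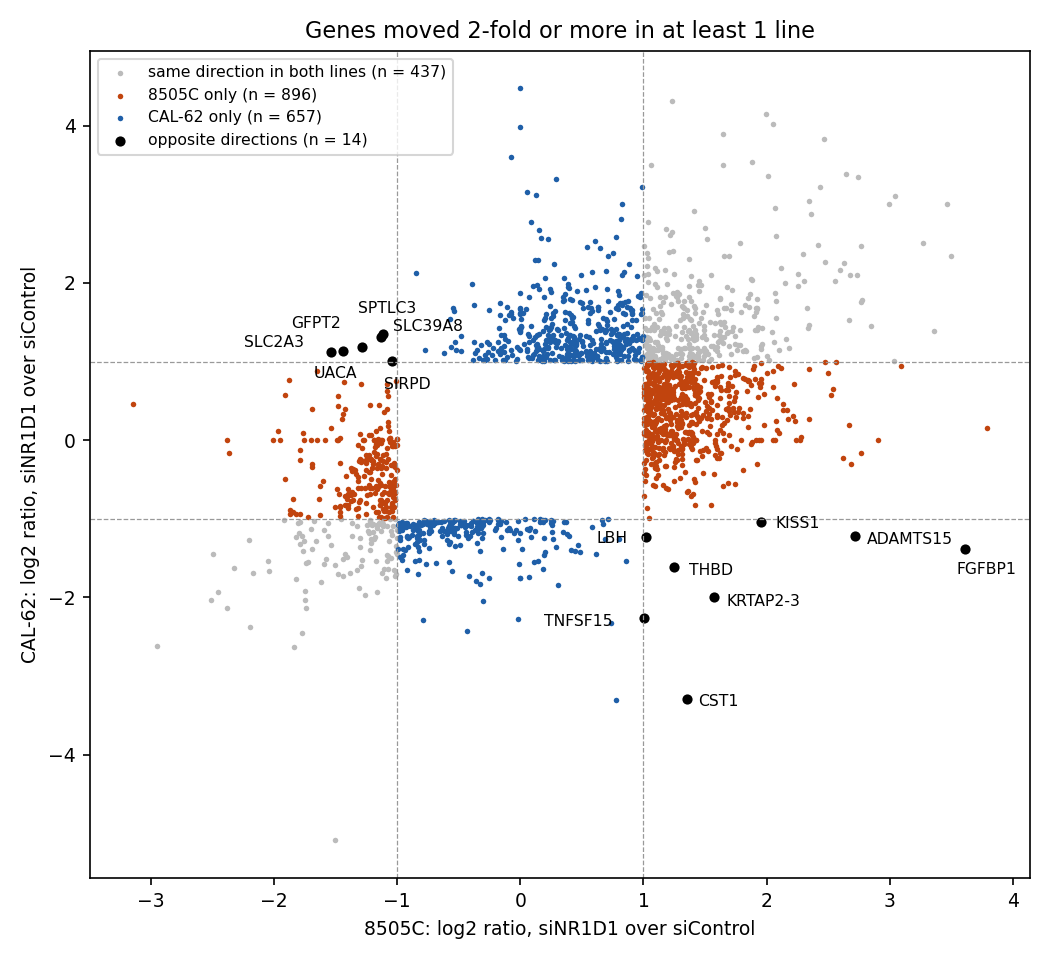
Each point is 1 of the 2004 protein-coding genes that moved 2-fold or more in at least 1 line, with its log2 ratio of siNR1D1 to siControl in 8505C on the horizontal axis and in CAL-62 on the vertical axis. Dashed lines mark 2-fold, and the 14 named black points are the genes that moved 2-fold in opposite directions.

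Sequences from 2 groups of members are printed here. The first set is a pair of promoters of mitotic genes that were higher in 8505C only. Promoters of G2/M genes commonly hold CCAAT boxes, bound by NF-Y, and the cell cycle homology region TTTGAA, bound by the MuvB complexes that switch mitotic genes on and off. The pair was taken from G2/M list members of that class whose promoters hold both motifs, so the motifs are there by choice. The windows run from 250 bases before to 50 bases after the start of the gene, from RefSeq on GRCh38.p14, and are written 5′ to 3′ on the strand of the gene. Capitals mark CCAAT and TTTGAA on either strand (read as ATTGG and TTCAAA on the other), and the CDCA8 window holds a TTTGAA and an ATTGG that share a base. CDC20, the activator of the anaphase-promoting complex, lies at chr1:43358731-43359030 on the plus strand. CDCA8, the borealin subunit of the chromosomal passenger complex, lies at chr1:37692266-37692565 on the plus strand.
CDC20: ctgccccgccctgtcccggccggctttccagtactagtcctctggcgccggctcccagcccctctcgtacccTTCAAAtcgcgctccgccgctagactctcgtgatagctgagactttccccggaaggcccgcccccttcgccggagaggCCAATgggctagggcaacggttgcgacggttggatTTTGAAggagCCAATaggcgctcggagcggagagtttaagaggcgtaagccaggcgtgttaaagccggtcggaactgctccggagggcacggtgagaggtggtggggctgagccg
CDCA8: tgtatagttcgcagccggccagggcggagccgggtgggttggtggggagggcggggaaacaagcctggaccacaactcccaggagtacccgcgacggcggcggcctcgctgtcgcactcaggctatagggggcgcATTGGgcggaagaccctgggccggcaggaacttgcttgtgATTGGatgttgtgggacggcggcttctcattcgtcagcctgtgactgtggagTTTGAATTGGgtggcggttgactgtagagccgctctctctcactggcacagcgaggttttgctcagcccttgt

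The second set is 3 stretches of 3′ UTR from genes that were 2-fold lower in 8505C only. The capitals mark the heptamer ATGAGCA, which was picked on these same libraries as more frequent in the 3′ UTRs of genes lower after siRNA, so its presence in lower genes is in part built in. They are the named genes of that class that carry it, in the GENCODE 29 annotation of GRCh38, written 5′ to 3′ on the strand of the transcript. CEMIP2, a cell surface protein of hyaluronan turnover, has its site at chr9:71684900-71684928 on the minus strand. ELOA, which encodes elongin A, has it at chr1:23760092-23760120 on the plus strand. KDM7A, a histone demethylase gene, has it at chr7:140087865-140087893 on the minus strand.
CEMIP2: ttgtaatgaccATGAGCAatgtttttact
ELOA: tagggcaaggaATGAGCActagaccgcct
KDM7A: tctaagcaaacATGAGCAaaagaggacct

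The 8 genes that were 2-fold higher in 8505C and 2-fold lower in CAL-62 are given with the level in each library. FGFBP1 (chr4:15935569-15938740), a secreted carrier that frees fibroblast growth factors from the matrix, went from 22.4 to 284 in 8505C and, in CAL-62, from 336 to 128. The CAL-62 control was far above the 8505C control, and after siRNA the order of the lines was turned around. The responses were 3.61 and -1.38, a difference of 4.99 (4.65 to 5.33), the largest of any gene tested. ADAMTS15 (chr11:130448974-130476641), a secreted metalloprotease, went from 8.55 to 61.7 in 8505C and, in CAL-62, from 109.6 to 46.7. It had the same layout, low in the 8505C control and high in the CAL-62 control, with responses of 2.72 and -1.21 and a difference of 3.93 (3.67 to 4.19).

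THBD (chr20:23045633-23049741), which encodes thrombomodulin, the thrombin-binding cofactor that activates protein C, went from 54.7 to 131 in 8505C and, in CAL-62, from 262 to 84.9. Its difference was 2.86 (2.69 to 3.04) and rested on at least 656 reads in each library. TNFSF15 (chr9:114784635-114806126), a ligand of the tumor necrosis factor family, went from 18.5 to 37.96 in 8505C and, in CAL-62, from 6.395 to 0.546. The 8505C ratio was just past the 2-fold line, and the CAL-62 siNR1D1 level rested on 8 reads (difference 3.26, 2.83 to 3.69). LBH (chr2:30231369-30323730), a transcription cofactor gene, went from 0.94 to 2.94 in 8505C and, in CAL-62, from 21.4 to 8.57, a difference of 2.25 (1.67 to 2.83). In 8505C it stayed under 3 in both libraries, on 13.5 reads in the control.

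The remaining 3 rested on few reads at 1 end. CST1 (chr20:23747553-23751268), a secreted inhibitor of cysteine proteases, went from 0 to 1.56 in 8505C and, in CAL-62, from 38.8 to 3.05. It had 0 reads in the 8505C control and 5 in 8505C siNR1D1, so its 8505C ratio depends on the 1 that was added. KRTAP2-3 (chr17:41059240-41060114), a hair keratin-associated protein, went from 5.62 to 18.7 in 8505C and, in CAL-62, from 29.8 to 6.69, with 15 reads in the 8505C control and 11 in CAL-62 siNR1D1, and near-identical members of its family may share reads with it. KISS1 (chr1:204190341-204196486), which encodes the kisspeptin precursor, went from 10.1 to 41.96 in 8505C and, in CAL-62, from 4.102 to 1.49. The CAL-62 levels of KISS1 rested on about 9 and 2 reads, and the interval of its CAL-62 response (-2.46 to 0.39) included no change.

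The 6 genes that were 2-fold lower in 8505C and 2-fold higher in CAL-62 included transporters and metabolic enzymes. SLC2A3 (chr12:7919230-7936275), the glucose transporter GLUT3, went from 97.4 to 32.97 in 8505C and, in CAL-62, from 4.56 to 11.1. Its responses of -1.53 and 1.13 gave a difference of -2.66 (-3.02 to -2.30). GFPT2 (chr5:180300690-180353387), which feeds fructose 6-phosphate into the hexosamine pathway, went from 59.9 to 23.998 in 8505C and, in CAL-62, from 21.7 to 50.7. In GFPT2 the levels of the 2 lines changed places, with a difference of -2.47 (-2.73 to -2.22). SLC39A8 (chr4:102251041-102431258), the zinc and manganese importer ZIP8, went from 72.2 to 32.3 in 8505C and, in CAL-62, from 20.7 to 52.8, a difference of -2.44 (-2.66 to -2.23).

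SPTLC3 (chr20:13008979-13169103), a subunit of the enzyme that starts sphingolipid synthesis, went from 38.5 to 17.3 in 8505C and, in CAL-62, from 8.85 to 24.1, a difference of -2.46 (-2.72 to -2.20). UACA (chr15:70654554-70763593), a coiled-coil protein gene, went from 17.2 to 5.696 in 8505C and, in CAL-62, from 205 to 451. UACA was far higher in CAL-62 in all libraries, and its difference was -2.57 (-2.77 to -2.38). SIRPD (chr20:1534251-1558843), of the signal regulatory protein family, went from 26.3 to 12.2 in 8505C and, in CAL-62, from 0.791 to 2.58, where the CAL-62 levels rested on about 5 and 10 reads. The other 5 had at least 86 reads in every library.

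The thresholds cut through close neighbours. EGR1, an immediate early transcription factor, had responses of 1.05 and -0.99 and INHBA, the activin A subunit gene, had 1.03 and -0.86, both just outside the opposite class that TNFSF15 entered with 1.001 in 8505C. TMEM17, a transmembrane protein gene, had -0.99 and 0.92, just outside the class that SIRPD entered with 1.001 in CAL-62. Counting error alone also blurred the 2-fold line. In CST1, KRTAP2-3, LBH, TNFSF15, KISS1, GFPT2, SLC2A3, SPTLC3 and SIRPD, the interval of the response in at least 1 line reached below 2-fold. It was 0.04 to 2.67 for CST1 in 8505C and 0.13 to 1.87 for SIRPD in CAL-62. FGFBP1, ADAMTS15, THBD, SLC39A8 and UACA had intervals wholly past 2-fold in both lines. Only 4 of the 8 and 5 of the 6 opposite genes had a mean of 5 or more in each line. With 5 added in place of 1, the opposite classes held 4 and 3 genes. Without the removal of mitochondrial genes, the class lower in 8505C and higher in CAL-62 held 0, and with the median ratio of genes of like GC content subtracted it held 3. The reverse class held 11 without that removal, of which only 4 were among the 8 reported.

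**Figure D2:**
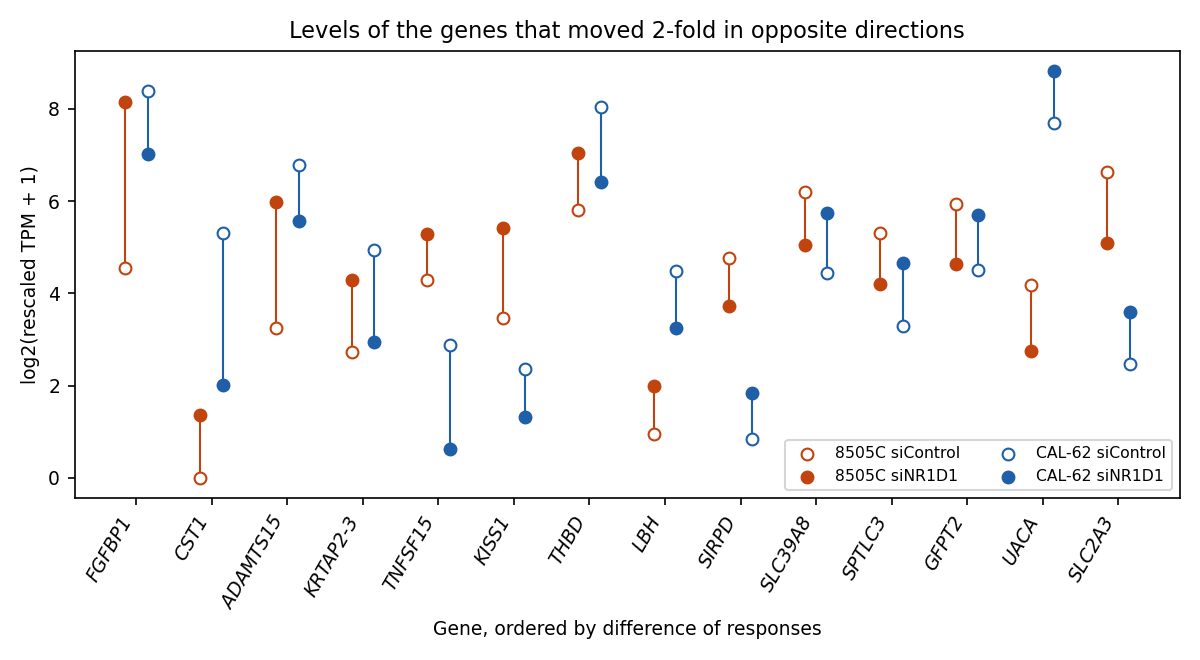
Levels as log2(rescaled TPM + 1) of the 14 genes that moved 2-fold in opposite directions, with open circles for siControl and filled circles for siNR1D1, red for 8505C and blue for CAL-62. In the 8 genes on the left the red circle goes up and the blue circle goes down with siNR1D1, and in the 6 on the right the reverse.

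The same 14 genes had mixed values in the vector lines. NR1D1 itself rose by less than 2-fold with its vector. Its log2 ratio of NR1D1 vector to empty vector was 0.17 for TPC-1, while FTC-133 had 0.35. The vector ratios given here thus go with a small measured rise of NR1D1. FGFBP1 had log2 ratios of NR1D1 vector to empty vector of -1.01 in TPC-1 and -1.55 in FTC-133, and THBD had -1.38 and -1.17. Both were thus lower with the vector in both vector lines. ADAMTS15 had 1.79 and 0.96, higher in both. UACA had 1.14 and -1.59, of opposite sign. The 661 and 235 genes moved in 8505C only had median vector responses of 0.04 and -0.01 in TPC-1 and of 0.08 and -0.10 in FTC-133. The 428 and 229 genes of CAL-62 had 0.16 and -0.14 in TPC-1 and 0.06 and 0.02 in FTC-133, beside -0.0042 and 0.01 over all genes.

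The 661 genes that were 2-fold higher in 8505C only had a median response of 1.26 there and 0.41 in CAL-62. Named genes of this and the next classes are those with the largest response whose other line stayed within 0.3. TIMP3, a tissue inhibitor of metalloproteases, led them and went from 0.783 to 23.7 in 8505C and, in CAL-62, from 0 to 0.116. ADAMTS1, a secreted metalloprotease, went from 10.7 to 78.6 in 8505C and, in CAL-62, from 0.461 to 0.302. ABI3, an adaptor of the actin cytoskeleton, went from 6.78 to 57.2 in 8505C with 0 reads in CAL-62, and S1PR3, a receptor for sphingosine 1-phosphate, went from 5.81 to 31.9 with 0 reads in CAL-62. For these 4 genes CAL-62 had almost no transcript in either library, so its lack of a response shows only that the gene stayed at or near 0.

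Other genes were expressed in both lines and moved in 8505C. TK1, the thymidine kinase of S phase, went from 58.2 to 286 in 8505C and, in CAL-62, from 62.4 to 63.99, a difference of 2.24 (1.95 to 2.53). HSPB1, the small heat shock protein HSP27, went from 85.8 to 439.5 in 8505C and, in CAL-62, from 154 to 186, a difference of 2.07 (1.86 to 2.29). In both genes the CAL-62 libraries were close together while 8505C siNR1D1 stood well above its control. CITED4, a coregulator that binds CBP and p300, went from 20.9 to 138 in 8505C and, in CAL-62, from 10.9 to 12.5. CDT1, a factor that licenses replication origins, went from 9.38 to 42.9 in 8505C and, in CAL-62, from 18.7 to 20.6. TMSB15A, a thymosin that binds actin, went from 2.58 to 21.05 in 8505C and, in CAL-62, from 26.7 to 22.6, from 5 reads in the 8505C control, and has a near-identical paralog. ID3, an inhibitor of basic helix-loop-helix factors, went from 31.7 to 128 in 8505C and, in CAL-62, from 6.09 to 7.11, and S100A2, a calcium-binding protein, went from 5.64 to 29.02 in 8505C and, in CAL-62, from 5.19 to 6.45.

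The 235 genes that were 2-fold lower in 8505C only had median responses of -1.19 and -0.41. MAP2, a microtubule-associated protein best known in neurons, went from 38.8 to 6.71 in 8505C and, in CAL-62, from 0.169 to 0.046. IL33, a nuclear cytokine, went from 20.5 to 4.35 in 8505C, and CGA, the alpha subunit shared by thyrotropin and gonadotropins, went from 24.7 to 3.93. IL33 and CGA had 0 reads in CAL-62, and MAGEB2, a cancer-testis antigen whose family shares sequence, went from 76.2 to 18.98 in 8505C with 0 reads in CAL-62. KLRC1, whose near copies may share its reads, went from 16.1 to 4.04 in 8505C and, in CAL-62, from 0.121 to 0.197.

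Other named genes of this class were expressed in both lines. DENND11, a DENN domain gene, went from 63.1 to 15.4 in 8505C and, in CAL-62, from 224 to 244, a difference of -2.09 (-2.25 to -1.92). UXS1, which makes UDP-xylose for proteoglycan chains, went from 35.7 to 9.62 in 8505C and, in CAL-62, from 69.97 to 63.8, a difference of -1.66 (-1.88 to -1.43). CEMIP2, whose site is printed above, went from 190.3 to 54.3 in 8505C and, in CAL-62, from 41.8 to 34.8, and its difference was -1.53 (-1.69 to -1.38). TENT5A, a noncanonical poly(A) polymerase gene, went from 314 to 113 in 8505C and, in CAL-62, from 9.73 to 9.93. In each of these genes the CAL-62 libraries were close together and the 8505C control stood far above 8505C siNR1D1. ELOA went from 103 to 41.1 in 8505C and, in CAL-62, from 47.1 to 39.2 and KDM7A went from 8.98 to 3.05 in 8505C and, in CAL-62, from 16.5 to 17.5.

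The 428 genes that were 2-fold higher in CAL-62 only had median responses of 0.43 in 8505C and 1.28 in CAL-62. ANGPTL4, a secreted inhibitor of lipoprotein lipase, led them and went from 1.32 to 1.32 in 8505C and, in CAL-62, from 1.31 to 50.5. CTBP1, a transcriptional corepressor, went from 30.2 to 37.002 in 8505C and, in CAL-62, from 28.9 to 299, a difference of -3.04 (-3.21 to -2.87). CTBP1 was at like levels in 3 libraries and stood far above them in CAL-62 siNR1D1 alone, on 4701 reads. SCEL, a protein of the cornified envelope, went from 37.9 to 39.4 in 8505C and, in CAL-62, from 3.64 to 40.3, and VEGFC, a growth factor for lymphatic vessels, went from 119.7 to 133 in 8505C and, in CAL-62, from 3.48 to 27.7. Both started low in CAL-62. SCEL reached the 8505C level there, and VEGFC stayed below it. CAVIN2, a coat protein of caveolae, went from 392 to 474 in 8505C and, in CAL-62, from 5.01 to 27.3.

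Others of the class were at or near 0 in 8505C. EPHA3, an ephrin receptor, went from 0.346 to 20.3 in CAL-62 with 0 reads in 8505C. ANO1, a calcium-activated chloride channel, went from 0.0544 to 0 in 8505C and, in CAL-62, from 3.999 to 59.6. SLC1A3, a glutamate transporter, went from 0.157 to 0.261 in 8505C and, in CAL-62, from 6.91 to 67.7, and CILP2, a cartilage matrix protein, went from 0 to 0.0625 in 8505C and, in CAL-62, from 2.76 to 24.6. SC5D, an enzyme of cholesterol synthesis, and SAMD9L, an interferon-induced gene, were measured in both lines. SC5D went from 22.3 to 26.6 in 8505C and, in CAL-62, from 28.5 to 95.05, and SAMD9L went from 9.62 to 7.92 in 8505C and, in CAL-62, from 5.64 to 19.9.

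The 229 genes that were 2-fold lower in CAL-62 only had median responses of -0.45 and -1.14. ALDH1A3, which oxidizes retinaldehyde to retinoic acid, went from 33.6 to 33.2 in 8505C and, in CAL-62, from 303 to 101, a difference of 1.56 (1.38 to 1.74). BMF, a BH3-only promoter of apoptosis, went from 48.8 to 51.4 in 8505C and, in CAL-62, from 28.97 to 8.01, a difference of 1.81 (1.48 to 2.14). Both were nearly level in 8505C. DCDC2, a doublecortin domain gene, went from 31.3 to 8.61 in CAL-62 and GAL, the galanin precursor gene, went from 30.04 to 8.18, each with 0 reads in 8505C. Several others of this class were short genes on few reads. BOLA1, a mitochondrial iron-sulfur protein gene, went from 9.86 to 9.69 in 8505C and, in CAL-62, from 12.7 to 1.82, on 57 and 5 reads in CAL-62. FKBPL went from 18.5 to 15.4 in 8505C and, in CAL-62, from 23.8 to 6.34, MTLN went from 10.1 to 11.6 in 8505C and, in CAL-62, from 7.77 to 1.81 and PDCD2L went from 8.096 to 8.85 in 8505C and, in CAL-62, from 12.9 to 3.76, with 7 to 16 reads in CAL-62 siNR1D1.

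Gene lists place these genes in pathways. A list is described by its measured members' median response in each line and by how many members had the higher response in 8505C. Over all genes that count was 5509 of 10839, near an even split. Among lists with at least 5 measured members, cell division genes and tubulins had the widest gaps. Of 41 measured G2/M and mitosis genes, 24 were 2-fold higher in 8505C only and 0 moved 2-fold in CAL-62. The median responses were 1.08 in 8505C and -0.16 in CAL-62, the median difference was 1.13, and the 8505C response was the higher in 40 of 41.

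CDC20 went from 63.7 to 226 in 8505C and, in CAL-62, from 166 to 127, a difference of 2.19 (1.97 to 2.40). CDCA8 went from 29.95 to 92.5 in 8505C and, in CAL-62, from 105 to 89.96, a difference of 1.82 (1.56 to 2.09). UBE2C, the ubiquitin-conjugating enzyme of the anaphase-promoting complex, went from 87.1 to 316 in 8505C and, in CAL-62, from 181 to 203. PTTG1, the securin gene, went from 90.9 to 172 in 8505C and, in CAL-62, from 249 to 149.7. In all 4 the 8505C control was the lowest library, and CDC20 and UBE2C were highest in 8505C siNR1D1. Promoters of the list could be read for 35 members, of which 74.3% held CCAAT and 68.6% held TTTGAA, beside 37.1% and 9.3% of 8922 promoters of tested genes. Among the 21 readable G2/M promoters of the 8505C-only class, 17 (81.0%) held CCAAT and 15 (71.4%) held TTTGAA. These shares were near the 74.3% and 68.6% of the whole list, whose other members did not move 2-fold. Among the other 500 readable promoters of the 8505C-only class the shares were 35.8% and 9.6%, close to those over all genes.

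G1/S and DNA replication genes moved less. Of 39, 6 were 2-fold higher in 8505C only and 1 was lower, and the 8505C response was the higher in 36, with medians of 0.41 and -0.13. TK1 and CDT1, given above, led them. POLD1, the catalytic subunit of DNA polymerase delta, went from 8.83 to 26.4 in 8505C and, in CAL-62, from 23.6 to 20.4. CCNE1, the cyclin of the G1/S step, went the other way, from 8.65 to 1.99 in 8505C and, in CAL-62, from 27.4 to 21.4. The 9 tubulins, subunits of microtubules, had medians of 0.82 and -0.26, with the higher response in 8505C in 9 of 9, and 3 of them were 2-fold higher in 8505C only. TUBA1B went from 136 to 309.8 in 8505C and, in CAL-62, from 224 to 147, and TUBB4B went from 327 to 683 in 8505C and, in CAL-62, from 559.9 to 453. Their family shares much sequence, so reads may be split among its members.

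**Figure D3:**
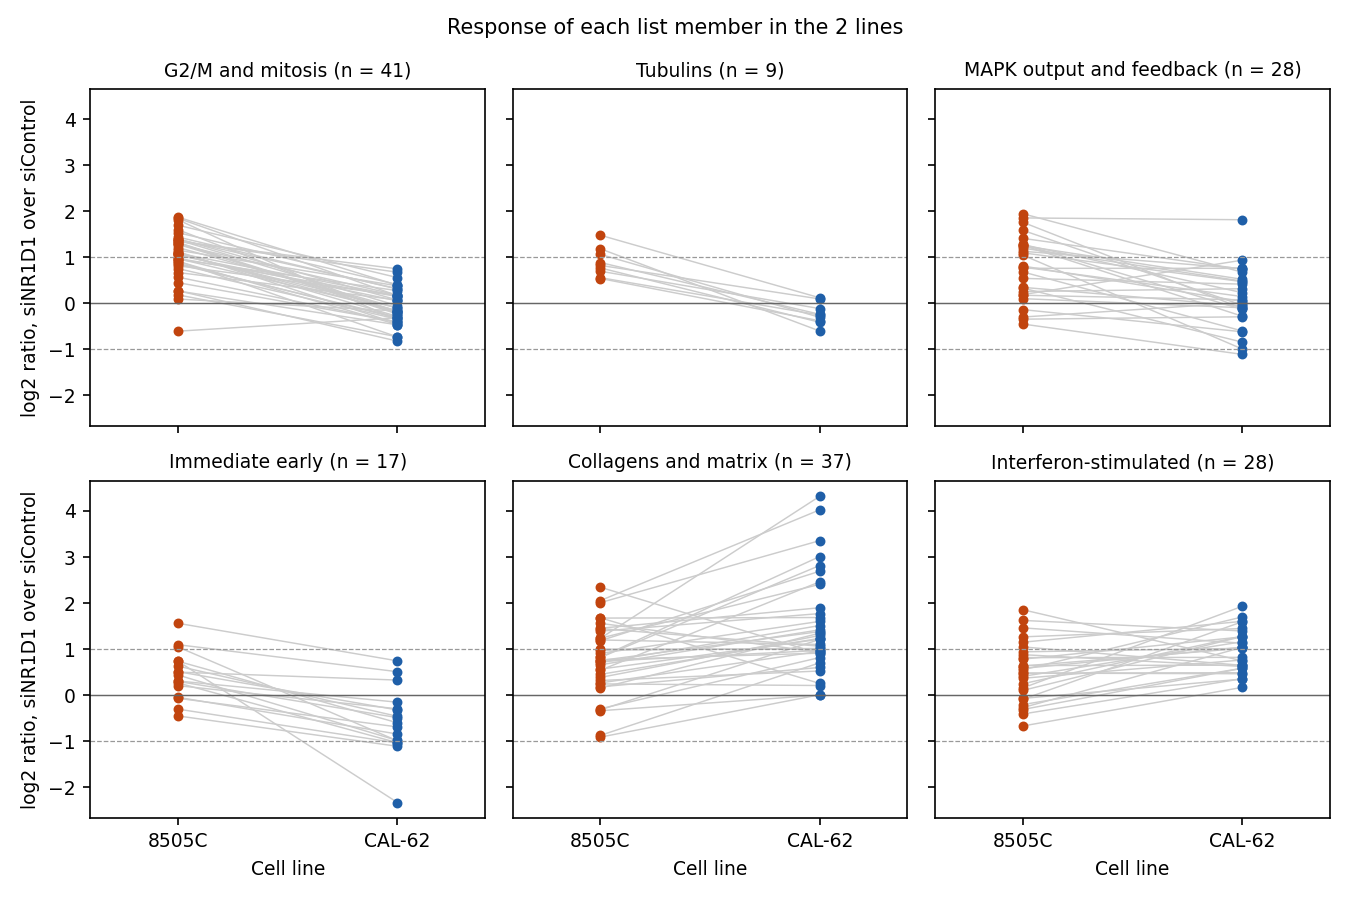
Each line joins the log2 ratio of siNR1D1 to siControl of 1 gene in 8505C (red) and in CAL-62 (blue), for 6 gene lists, with dashed lines at 2-fold. In the G2/M, tubulin, MAPK and immediate early lists most lines slope down from 8505C to CAL-62, and in the matrix and interferon lists most slope up.

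Genes driven by growth factor signals also lay on the 8505C side. Of 28 genes of MAPK output and feedback, 12 were 2-fold higher in 8505C only and 1 was lower in CAL-62 only, with medians of 0.80 and 0.06 and the higher response in 8505C in 24. HMGA1, a chromatin architectural protein, went from 879 to 2979 in 8505C and, in CAL-62, from 5181 to 4794. FOSL1, an AP-1 subunit, went from 104 to 249.97 in 8505C and, in CAL-62, from 184 to 152, and PHLDA2, an imprinted growth regulator, went from 88.7 to 268 in 8505C and, in CAL-62, from 39.3 to 38.1. The immediate early list had 17 genes, medians of 0.44 and -0.60, and the higher response in 8505C in 17 of 17. EGR1, which both lists hold, went from 16.2 to 34.5 in 8505C and, in CAL-62, from 239 to 119.9. ATF3, a stress-induced factor, went from 8.43 to 14.7 in 8505C and, in CAL-62, from 35.8 to 6.32, a difference of 3.07 (2.58 to 3.55), and JUNB, an AP-1 subunit, went from 103 to 139.6 in 8505C and, in CAL-62, from 83.8 to 41.8. ATF3 and JUNB were higher in 8505C siNR1D1 and lower in CAL-62 siNR1D1 than in their controls.

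Housekeeping lists of translation and respiration were shifted by less, and the 8505C response was the higher in most members. The 43 cytosolic ribosomal protein genes had medians of -0.39 and -0.85, and the 8505C response was the higher in 43 of 43, while only 5 counted as 2-fold lower in CAL-62 only. RPL8, among the only 5 of the 43 that were above control in 8505C, went from 3807 to 3899 there and, in CAL-62, from 2262 to 1215. The 42 nuclear-encoded respiratory chain genes had medians of -0.06 and -0.46, with the higher response in 8505C in 35. In 8505C, 17 of the 42 were above control and only 2 were 2-fold higher. NDUFB7, a subunit of complex I, went from 131 to 265 in 8505C and, in CAL-62, from 145 to 101, and COX8A, of complex IV, went from 218 to 438 in 8505C and, in CAL-62, from 306 to 249.7. These lists hold mostly genes of short exon length, with a median of 3002 bases for the ribosomal and 2200.5 for the respiratory list. Over all genes it was 5173. Exon length here joins the exons of every annotated transcript of a gene, so it can exceed the length of any 1 transcript. The part of exon length in their shift was not tested beyond the subtraction described below.

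Matrix and adhesion genes lay on the CAL-62 side. Of 37 collagen and matrix genes, 13 were 2-fold higher in CAL-62 only, 3 in 8505C only and 10 in both, with medians of 0.77 and 1.21. The CAL-62 response was the higher in 30 of 37. FBN1, the fibrillin of microfibrils, went from 30.05 to 53.95 in 8505C and, in CAL-62, from 30.8 to 255, a difference of -2.19 (-2.30 to -2.07). LOX, which cross-links collagen, went from 353 to 624 in 8505C and, in CAL-62, from 25.9 to 188, and COL12A1, a collagen of fibril surfaces, went from 12.9 to 19.3 in 8505C and, in CAL-62, from 4.09 to 27.1. The LOX levels of 8505C were above those of CAL-62 throughout, and COL12A1 ended higher in CAL-62. Integrins and adhesion genes had medians of 0.86 and 1.18 over 24 genes, with 5 higher in CAL-62 only. Their median difference of -0.58 became 0.02 without the removal of mitochondrial genes. ITGA1, a collagen-binding integrin, went from 64.4 to 86.6 in 8505C and, in CAL-62, from 8.59 to 32.1, and ITGB3, the beta chain of the vitronectin receptor, went the other way, from 14.6 to 28.6 in 8505C and, in CAL-62, from 154 to 97.4.

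Matrix proteases and their regulators were split. Of 23, 4 were 2-fold higher in CAL-62 only and 3 in 8505C only, with medians of 0.62 and 1.06. TIMP3 and ADAMTS1 were on the 8505C side. MMP1, interstitial collagenase, went from 23268 to 23283 in 8505C and, in CAL-62, from 0.825 to 5.67. MMP1 was at a very high and level value in 8505C, and its CAL-62 change took place near the lower end of detection.

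Interferon and antigen presentation genes leaned to CAL-62. Of 28 interferon-stimulated genes, 11 were 2-fold higher in CAL-62 only, 2 in 8505C only and 4 in both, with medians of 0.51 and 1.02. IFI44 went from 3.86 to 4.41 in 8505C and, in CAL-62, from 36.1 to 140.1, a difference of -1.77 (-2.42 to -1.13). OAS2, a sensor of double-stranded RNA, went from 4.18 to 3.87 in 8505C and, in CAL-62, from 5.61 to 18.9, and MX1, an antiviral GTPase, went from 1.71 to 2.97 in 8505C and, in CAL-62, from 5.74 to 20.9. ISG15, the ubiquitin-like modifier, had the larger response in 8505C and went from 4.87 to 20.3 in 8505C and, in CAL-62, from 10.4 to 18.1. The 16 HLA class I genes had medians of 0.42 and 0.59, with 5 higher in CAL-62 only, among them the peptide trimming enzyme ERAP1, which went from 58.05 to 63.997 in 8505C and, in CAL-62, from 38.2 to 87.2. The median differences of -0.44 for the interferon list and -0.26 for the HLA class I list became 0.06 and 0.08 without the removal of mitochondrial genes.

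The glucose transporter SLC2A3, given above, belongs to the glycolysis and hypoxia list. Over 32 glycolysis and hypoxia genes the medians were -0.07 and 0.39, and the difference of -0.25 became 0.17 without the removal of mitochondrial genes. SLC2A1, the glucose transporter GLUT1, went from 108 to 95.5 in 8505C and, in CAL-62, from 145 to 394, and P4HA1, a collagen prolyl hydroxylase, went from 384 to 266 in 8505C and, in CAL-62, from 86.7 to 208. HK2, a hexokinase, went from 91.9 to 40.8 in 8505C and, in CAL-62, from 18.4 to 18.6. SLC2A1 and P4HA1 thus were higher in CAL-62 with little change or lower values in 8505C, and HK2 was lower in 8505C alone. The 22 unfolded protein response genes had medians of 0.06 and 0.47 and 0 members among the divergent genes. HSPA5, the chaperone BiP, went from 1859 to 1740.4 in 8505C and, in CAL-62, from 1614 to 2586. The list's difference of -0.40 became 0.04 without the removal of mitochondrial genes.

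Some lists had closer medians in the 2 lines. Cholesterol synthesis genes had medians of 1.03 and 1.05 over 22 genes, where 7 were 2-fold higher in both lines, 5 in 8505C only and 4 in CAL-62 only. MVD, an enzyme of the mevalonate steps, went from 12.99 to 51.2 in 8505C and, in CAL-62, from 19.4 to 38.1. The 23 core clock and output genes had medians of 0.28 and 0.17, and their median difference of 0.15 became -0.02 with GC content subtracted. NPAS2, a partner of BMAL1, was 2-fold higher in CAL-62 only, from 6.47 to 9.104 in 8505C and, in CAL-62, from 7.44 to 19.99, and USP2, a deubiquitinase gene with a daily rhythm, in 8505C only, from 3.98 to 11.1 in 8505C and, in CAL-62, from 4.17 to 5.17. The 28 NF-kB targets and cytokines had medians of 0.68 and 0.45, members went both ways, and the median difference of 0.07 changed sign under 6 of the other settings tried. IL1A went from 17.6 to 48.6 in 8505C and, in CAL-62, from 2.604 to 1.502, and CXCL1 went from 682 to 893 in 8505C and, in CAL-62, from 9.79 to 40.6. Histone genes had medians further apart. Over 12 genes these were -1.23 and -0.62, and 4 were 2-fold lower in 8505C only.

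**Figure D4:**
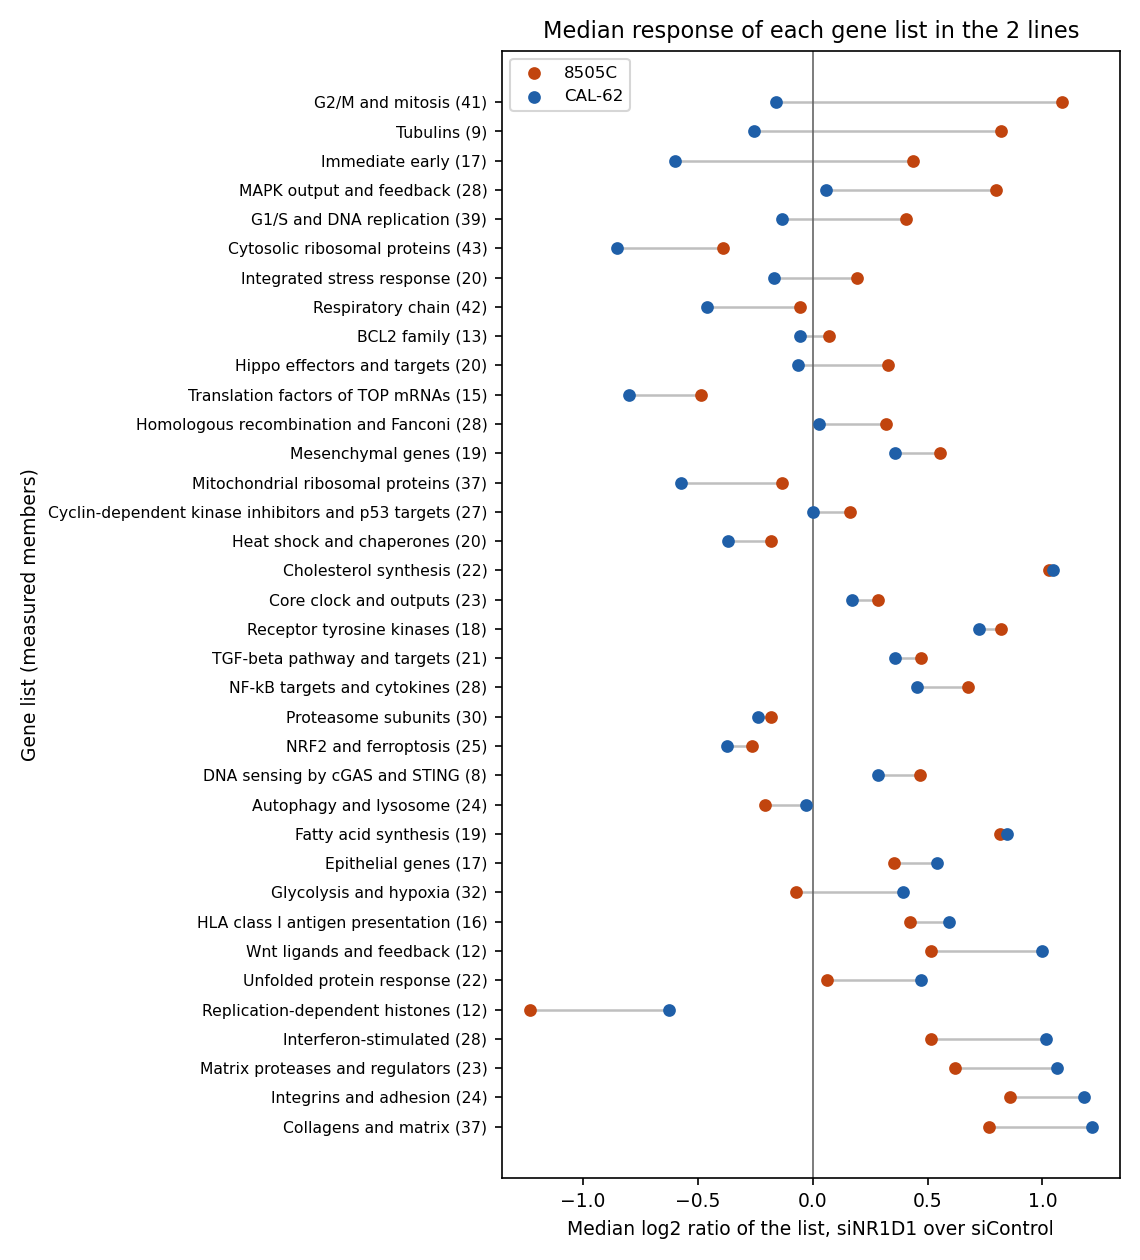
Median log2 ratio of siNR1D1 to siControl of each gene list with at least 5 measured members, in 8505C (red) and CAL-62 (blue), ordered by the median difference, with the number of measured members in brackets. G2/M genes, tubulins and immediate early genes are at the top, and matrix and integrin genes are at the bottom.

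Transcript properties moved with the responses. GC content of the transcript correlated over genes with the 8505C response (Spearman rho 0.419) and hardly with the CAL-62 response (0.061). With genes sorted into 5 equal bins, from the bin lowest in GC (median 38.8%) to the highest (61.8%), the median 8505C response went from -0.19 to 0.54 and the CAL-62 response from 0.05 to 0.14. The 661 genes higher in 8505C only had a median GC content of 58.8%, the 235 lower genes 43.9%, and all genes 48.6%. The genes higher and lower in CAL-62 only had 49.2% and 50.9%. Exon length went with the CAL-62 response (rho 0.195) more than with the 8505C response (-0.069). From the shortest of 5 bins (median 2220.5 bases) to the longest (10638 bases), the median difference went from 0.27 to -0.18.

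The counts were repeated with these trends taken out. With the median ratio of genes of like GC content subtracted in each line, 459 and 171 genes were 2-fold higher and lower in 8505C only, and 476 and 254 in CAL-62 only. Of the members reported, 333 of 661 and 127 of 235 stayed in the 8505C classes, and 355 of 428 and 190 of 229 in those of CAL-62. The G2/M list, with a median GC content of 43.2%, had a difference of 1.29 after this subtraction and of 1.03 after the same for exon length. The tubulins, at 56.3% GC, had 0.92 and 1.01. The immediate early list had 0.70 under each, the collagen list had -0.92 and -0.54, and the ribosomal list had 0.47 and 0.31.

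**Figure D5:**
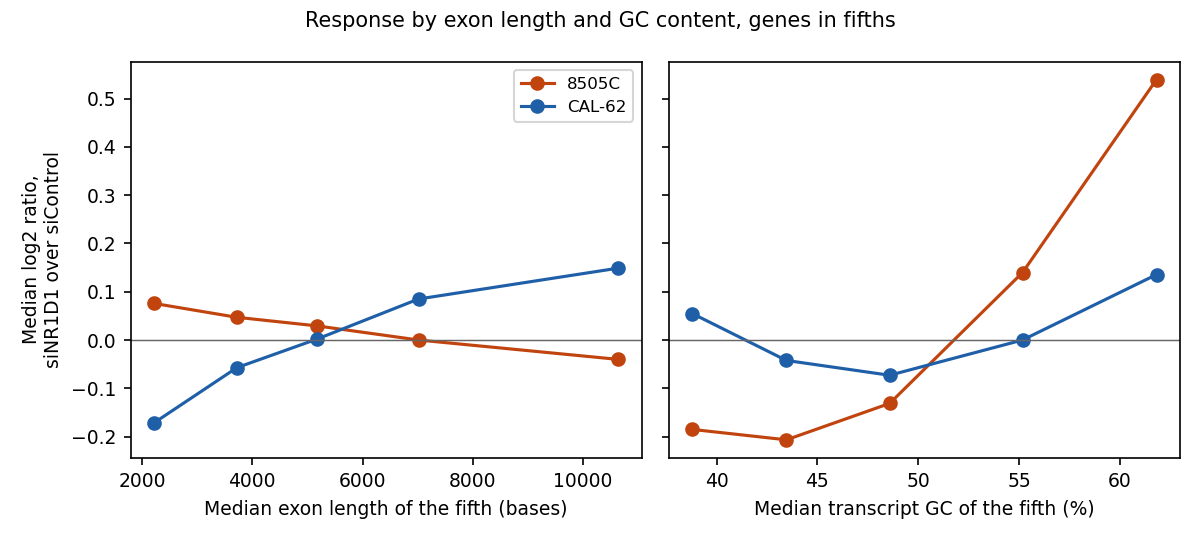
Median log2 ratio of siNR1D1 to siControl in 8505C (red) and CAL-62 (blue) for genes sorted into 5 equal bins by exon length in bases (left) and by transcript GC content in percent (right). The 8505C response climbs with GC content to 0.54, and the CAL-62 response climbs with exon length from -0.17 to 0.15.

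The heptamer ATGAGCA was in the 3′ UTR of 29.7% of genes 2-fold lower in 8505C only, 12.4% of genes lower in CAL-62 only, 29.4% of genes lower in both lines and 9.54% of all genes. It was in 5.36% and 9.18% of genes higher in 8505C only and in CAL-62 only. UTR length differs between these classes, with medians of 1650.5 and 687 bases for the lower genes of 8505C and CAL-62. Among UTRs of 1000 to 3000 bases the shares were 28.8% and 12.7%, beside 10.3% of all genes. The 69 genes lower in 8505C only that carried it had a median CAL-62 response of -0.53, and those without it had -0.35. Over all genes, the 1021 carriers had median responses of -0.21 in 8505C and -0.01 in CAL-62. As said above, the heptamer was picked on these same libraries as more frequent in genes lower after siRNA. These shares and the lower responses of carriers are thus in part built in. The carriers were also lower in GC content, at 44.1%. The named genes that show it are CEMIP2, ELOA and KDM7A. Of the first 8 named genes of the class, 1 carried it. The siRNA sequence is not known here, and its relation to the heptamer was not tested.

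Shares of other promoter motifs were also counted by class. CACGTG, the E-box bound by clock and MYC factors, was in 18.2% of 181 promoters of genes lower in CAL-62 only and 10.2% of all. It was in 9.40%, 11.06% and 8.67% of genes higher and lower in 8505C only and higher in CAL-62 only. Genes lower in both lines had it in 5.88% of 85 promoters. AGGTCA, the hexamer bound by REV-ERB alpha and many other nuclear receptors, was in 9.98% and 12.6% of promoters of genes higher and lower in 8505C only, 9.29% and 11.05% of those of CAL-62, and 9.12% of all. TGACTCA, an AP-1 site, was in 4.03%, 5.03%, 4.02% and 3.31% of the same classes and 2.76% of all. Both strands were searched in the same 300-base windows, which could be read for 8922 of 10839 genes.

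Some genes named as markers of other cell types moved as well. CDH5, the endothelial cadherin, went from 66.2 to 196 in 8505C and was at most 0.525 in CAL-62, and KDR was at most 1.38 and TEK at most 0.624 in all 4 libraries. MCAM, a surface marker of pericytes and melanoma, went from 42.6 to 112 in 8505C and, in CAL-62, from 56.3 to 150.1. CSPG4 went from 15.3 to 48.98 and from 1.0991 to 3.46, PDGFRB from 0.735 to 11.5 in 8505C, and PECAM1 from 3.77 to 7.21 in 8505C. The summed level of 9 endothelial and pericyte markers went from 132 to 379 in 8505C and, in CAL-62, from 59.1 to 157, with VWF at or near 0. CD14, a monocyte receptor, went from 31.6 to 119 and from 2.37 to 38.1, while the other 5 immune markers were below 1 in all 4 libraries. COL1A1 made up most of the fibroblast sum in CAL-62, which went from 138 to 1422, with DCN and THY1 at 0 and PDGFRA at most 0.0341 there. LUM went from 0 to 3.19, FAP from 0.701 to 1.45 and COL3A1 from 0 to 0.156 in CAL-62.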

How the data were processed

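RNA-seq libraries of 4 human thyroid cancer cell lines, 1 per group, gave 8 deposited columns. The submitters' processing notes name FastQC, MultiQC, Trimmomatic 0.38, featureCounts 2.0.0 and the build GRCh38. The sources used here give no aligner, annotation or strand setting. The deposited values of 8505C and CAL-62 are TPM as computed by the authors, and each column sums to 1000000. The deposited values of TPC-1 and FTC-133 are named TPM by the authors, but value times exon length in GENCODE 29 gave the sum of FPKM, and they were read as FPKM.

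Here, 37 genes of the mitochondrial genome were dropped and every column was rescaled to a sum of 1000000, for TPM and FPKM columns alike. Ratios are log2 of (value + 1), for protein-coding genes with a mean of 5 or more over the 4 siRNA-line libraries. The product of value and exon length, on a scale found for each library, gave read numbers, and 92.5% to 93.6% of values under 10 reads in these libraries came out whole within 0.02 of a read. They served for the 95% intervals of the ratios, for library depth and for the read numbers given for genes. Those read numbers are estimates, since not all came out whole. With 1 library per group there was no test and no p-value, and the steps were tried on made-up tables with known answers. Python 3.11.15, numpy 2.4.6, pandas 2.3.3 and matplotlib 3.10.9 were used.

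The members and the 41 gene lists were chosen with earlier results of these data known. Opposite classes gave up to 10 named genes by the smaller absolute log2 ratio. One-line classes gave 8 each by the log2 ratio of the moving line, among genes within 0.3 of no change in the other line, and each list gave up to 4 members by absolute difference. A further set was named by the same order among genes with a mean of 5 or more in each line, and a few list members were named after their values were seen. Promoters (RefSeq, GRCh38.p14) matched 8922 of the 10839 genes by symbol. A few genes are not reported here. Other pseudocounts, filters, scalings, biotypes and subtractions of trends with exon length and GC content were tried.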

Additional observations from a re-analysis of the deposited data

Results flagged for a closer look

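The 14 genes that moved 2-fold in opposite directions stand out because the single pair of libraries of 8505C went one way and the single pair of CAL-62 the other. The difference was not tested, since each group had 1 library. The differences (8505C response minus CAL-62 response, log2) were 4.99 for FGFBP1, 4.65 for CST1, 3.93 for ADAMTS15, 3.57 for KRTAP2-3, 3.26 for TNFSF15, 2.99 for KISS1, 2.86 for THBD and 2.25 for LBH. On the CAL-62 side they were -2.66 for SLC2A3, -2.57 for UACA, -2.47 for GFPT2, -2.46 for SPTLC3, -2.44 for SLC39A8 and -2.04 for SIRPD. CST1, KRTAP2-3, TNFSF15, KISS1, LBH and SIRPD rested on fewer than 20 reads in at least 1 library.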

How the results depend on the processing

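No paired analysis was possible because each group had 1 library and the labels give no replicate numbers, and for the same reason no replicate could be left out. Of 72 class counts under alternatives, 50 stayed within 1.5 times the value reported and 22 did not. In the order opposite with 8505C higher, opposite with CAL-62 higher, 8505C only higher and lower, CAL-62 only higher and lower, the counts reported were 8, 6, 661, 235, 428 and 229. With a pseudocount of 0.1 the second was 15. With a pseudocount of 5 the opposite classes held 4 and 3, and the lower classes 143 and 120. With a mean of 20 or more the first was 3 and the one-line classes held 390, 147, 245 and 149, since fewer genes were tested. With no filter, 746 were higher in CAL-62 only. With mitochondrial genes kept the first held 11 genes, of which only 4 were among the 8 reported, and the second held 0. Under that setting 131 were lower in 8505C only, and 94 and 836 were higher and lower in CAL-62 only, where the median of all genes was -0.38. With genes of every biotype the opposite classes held 39 and 58, 421 were lower in 8505C only, and 696 and 348 were higher and lower in CAL-62 only. With a mean of 5 or more in each line the first was 4, and with GC content subtracted the second was 3.

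Of 473 list medians under alternatives, 443 kept the sign of the difference. NF-kB targets became -0.0076 at pseudocount 5, -0.0561 at a mean of 1, -0.44 at a mean of 20, -0.23 at 5 or more in each line, -0.0767 with exon length and -0.11 with GC content subtracted. The cGAS and STING list became 0.0193, 0.0777, 0.0958, 0.26 and 0.0348 at pseudocount 5, a mean of 1, no filter, mitochondrial genes kept and GC content subtracted. Epithelial genes became 0.53, 0.40, 0.19 and 0.87 at pseudocount 0.1, no filter, mitochondrial genes kept and 5 or more in each line. Fibroblast markers became 0.0348 at a mean of 1 and 0.0349 with no filter. With mitochondrial genes kept, integrins became 0.0188, fatty acid synthesis 0.26, glycolysis and hypoxia 0.17, unfolded protein response 0.0411, interferon-stimulated genes 0.0575, HLA class I 0.0795, autophagy 0.34, Wnt 0.21 and thyroid markers 0.0678. Autophagy became 0.0477 at 5 or more in each line, clock genes -0.0178 with GC content subtracted, and proteasome -0.0037 and NRF2 genes -0.10 with exon length subtracted. Apart from the shift with mitochondrial genes kept and the smaller sets of genes tested, the cause was not tested. Of the named genes' differences, 610 stayed within their counting interval and 74 did not, 27 of these at pseudocount 5 and 27 with mitochondrial genes kept. The trimmed mean of M values and centring on the median ratio moved no class count past 1.5 times. The settings with 5 or more in each line and with trends subtracted were chosen after seeing the data. Depth limits genes on few reads most, above all in CAL-62 siNR1D1.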

Other observations

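Several lists not described above also leaned one way by a small amount. Of 20 heat shock and chaperone genes, the 8505C response was the higher in 18, with medians of -0.18 in 8505C and -0.37 in CAL-62. The 20 genes of the integrated stress response had medians of 0.19 and -0.17, with the higher response in 8505C in 16. The 37 mitochondrial ribosomal protein genes had -0.13 and -0.57 (29 of 37), and the 15 translation factors of TOP mRNAs had -0.49 and -0.80 (13 of 15). The mitochondrial ribosomal list had a median exon length of 2464 bases and a median difference of 0.27. Over all genes, the shortest of the 5 bins by exon length had the same median difference, 0.27. The part of exon length in that list's shift was not tested beyond the subtraction described above. On the other side, 12 Wnt ligands and feedback genes had 0.52 and 0.998, and the higher response was in CAL-62 in 8, a lean that turned round when mitochondrial genes were kept. Receptor tyrosine kinase genes leaned to 8505C, with medians of 0.82 and 0.73 and the higher response in 8505C in 15 of 18. TGF-beta genes had 0.47 and 0.36 (higher in 8505C in 12 of 21), and proteasome genes had -0.18 and -0.24 (16 of 30). Both counts were near the even split over all genes, 5509 of 10839, so neither list leaned clearly. The proteasome difference of 0.05 became -0.0037 with exon length subtracted.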
